A study of Mus musculus with 10 samples.

Results

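The genes described here are named for cilia and flagella associated proteins (Cfap), radial spoke heads and their relatives (Rsph), tektins (Tekt) and sperm flagellar proteins (Spef). Many of them build the axoneme, the microtubule core of motile cilia and sperm tails. The set is called axonemal here, although some members act elsewhere or have less settled roles. A gene was included when an array probe set carried exactly 1 gene symbol and that symbol began with Cfap, Rsph, Tekt or Spef followed by a number, and where a gene had several, the one brightest on average across the 10 arrays was used. This name rule used no difference between the groups, but the members and lists were chosen with earlier results of these data known. The rule gave 47 of the 22180 genes measured: 32 Cfap, 7 Rsph, 5 Tekt and 3 Spef genes, spread over 17 chromosomes. A further 2 probe sets that name Cfap54 and Cfap43 together with another gene were left out.

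The series is a set of 10 expression arrays of sorted lung epithelium from mice at postnatal day 4, with 5 arrays for each of 2 cell populations that are both labelled as type 2 alveolar epithelial cells (AEC2), the surfactant-producing cells of the air sacs. The Axin2+ cells came from Axin2CreERT2-TdTom mice and were sorted as TdTomato+, EpCAM+, CD31- and CD45- cells. The line name joins the Wnt target gene Axin2, a tamoxifen-dependent Cre recombinase and the red reporter TdTomato. It does not say whether the reporter depends on the Cre. SP-C+ cells came from SftpcCreERT2-R26REYFP mice, in which the same kind of Cre is driven by the surfactant protein C gene Sftpc, and were sorted for the yellow reporter after 24 hours of lineage tracing. The background strain of all mice was mixed, made up of C57BL/6, 129S6 and CD-1, and the mice received no treatment beyond the labelling, and 100 ng of total RNA was labelled per array. The sample descriptions also mention day 3 and adult cells, but every title and age entry gives day 4. Each population has its own mouse line, reporter and gate, and a tracing time is given for SP-C+ cells only. None of these can be told apart from the population itself. The labels do not say that the arrays of a group came from separate animals, so p-values measure the spread between arrays.

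Motile cilia share a common plan. Doublet microtubules surround a central pair, dynein motors on the doublets generate sliding, and radial spokes pass signals from the central pair to the motors. Tektin filaments and other proteins inside the doublets stiffen the wall, and tethers at the spoke bases hold the inner dynein arms in place. In the lung, multiciliated cells of the conducting airways carry many such cilia, which move mucus, and alveolar type 2 cells carry none.

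Values are log2 intensities, and each difference is Axin2+ minus SP-C+ with its standard error (SE). Tests are 2-sided limma tests with p-values adjusted by the Benjamini-Hochberg method over all 22180 genes, and a gene is said to have risen or fallen at an adjusted p under 0.05. The arrays had medians of 5.89 to 5.97, and their number limits the precision. Sftpc, which defines type 2 cells, averaged 14.11 ± 0.03 in Axin2+ cells and 14.02 ± 0.03 in SP-C+ cells (SD, n = 5 each). The groups did not overlap, but the difference of 0.10 ± 0.06 (SE, adjusted p = 0.324) did not pass. Both means lay near the highest value on the arrays, 14.16, and whether the probe set was saturated was not tested. All 17 AEC2 markers measured lay above the median gene of every array in both populations. Axin2 itself was lower in Axin2+ cells by 0.53 ± 0.08 (SE, adjusted p = 3.28e-04), so the gene that labels the population did not measure higher there. Only the Axin2+ mice carry an Axin2-based construct, and its effect on the measured Axin2 level was not tested.

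Axonemal genes were higher in Axin2+ cells. Of the 47 genes, 38 rose (80.9%), where 8.61% of all genes rose. None fell, where 8.95% of all genes fell, and none was lower at an unadjusted limma p under 0.05 either. The other 9 did not pass the test. The median difference over the 47 genes was 1.37, beside -0.04 over all genes. In 38 of the 47 genes (80.9%) the lowest Axin2+ value lay above the highest SP-C+ value, where this held for 7.38% of all genes. They were the same 38 genes that rose, and both counts come from the same values. No gene of the set lay wholly lower in Axin2+ cells, where 7.66% of all genes did. Markers of ciliated cells outside the set moved the same way, with 22 of 26 higher in Axin2+ cells. In bulk RNA a different number of cells of a type and a different amount of RNA per cell cannot be told apart.

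The rises were large. At least 4-fold rises were seen in 13 of the 47 genes (27.7%), where 0.924% of all genes rose that much. Under other settings the number went down to 10, and the 13 include Cfap299, whose SP-C+ values lay near the dim end of the arrays. Rises of 2- to 4-fold were seen in 14 and smaller ones in 11. Cfap206, Rsph4a, Cfap44, Cfap65 and Cfap43 rose at least 8-fold and are among the 60 genes on the arrays that did, and 8 of the 47 were among the 100 genes with the largest rise on the arrays. In either direction, 17.6% of all genes changed. SEs of the differences ran over 0.07 to 0.25, with a median of 0.12.

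**Figure D1:**
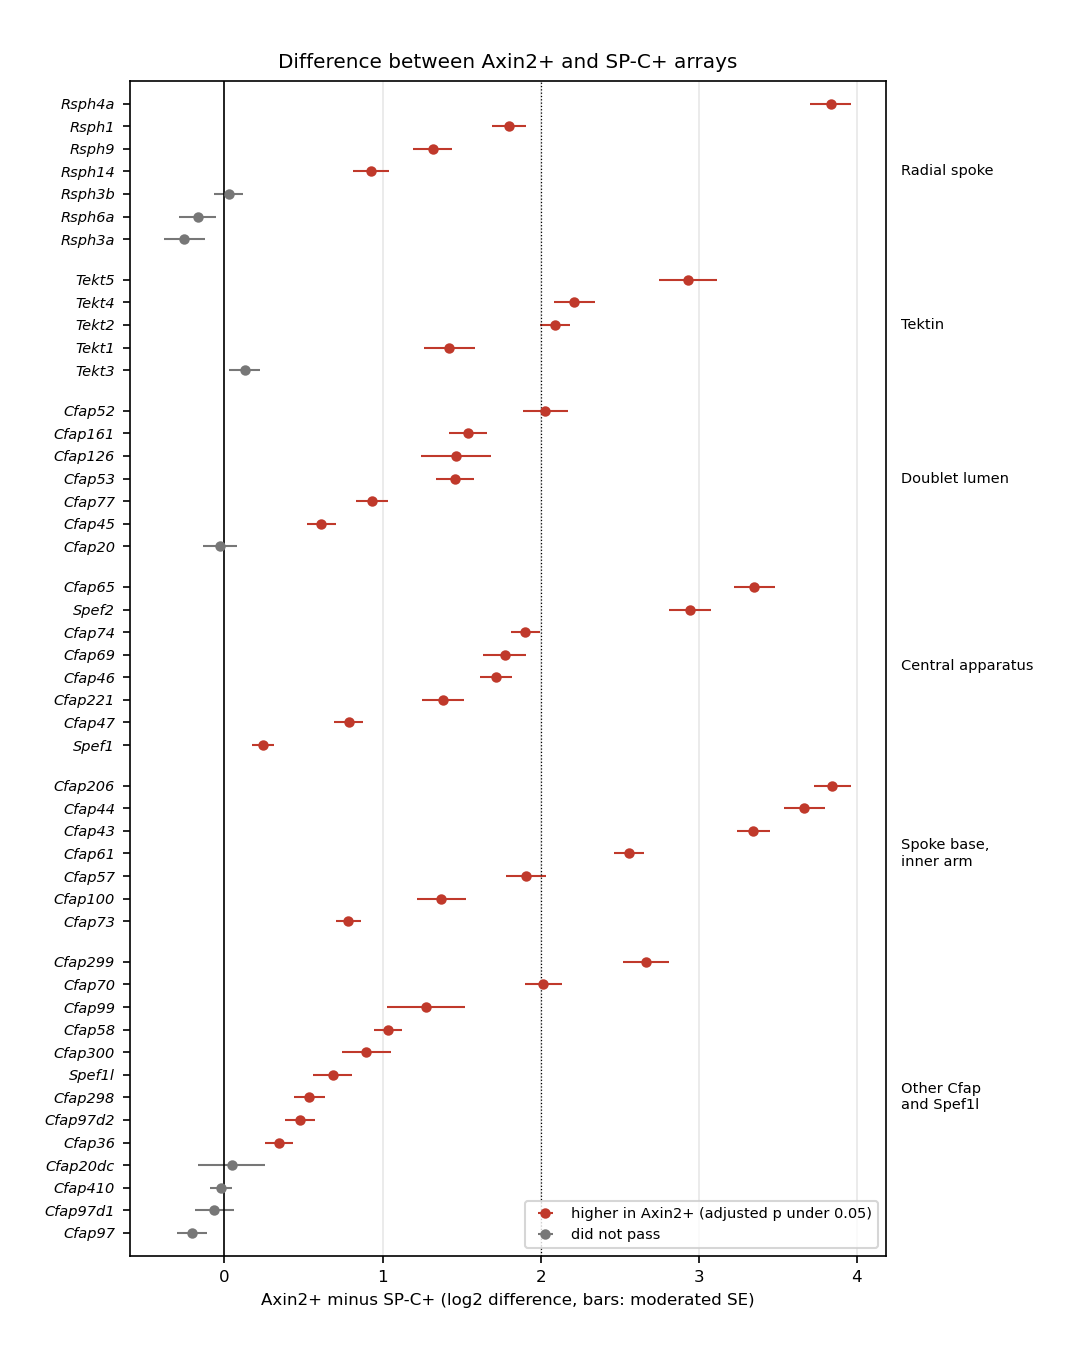
Difference between Axin2+ and SP-C+ cells for each of the 47 genes (horizontal axis, log2, Axin2+ minus SP-C+), grouped by role, with bars for the SE from limma, red for genes that rose, grey for genes that did not pass and a dotted line at a 4-fold rise. The 38 that rose lie right of 0, up to 3.85 for Cfap206, and the 9 others lie between -0.25 and 0.13.

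The genes also differed in how bright they were beside the median gene of each array. On SP-C+ arrays, 27 of the 47 lay below the array's median gene on all 5 arrays, and 10 lay above it on all 5. On Axin2+ arrays, 6 lay below it and 32 above it on all 5. Of the 10 that lay above the median gene on all SP-C+ arrays, 5 did not pass the test (Cfap20, Cfap410, Cfap97, Rsph3a and Rsph3b) and 5 rose by 0.24 to 0.79 (Spef1, Cfap36, Cfap298, Cfap47 and Cfap73). The 25 genes that lay below it on all SP-C+ arrays and rose did so by 0.48 to 3.85, with a median of 1.72. Another 8 that rose lay above it on only some SP-C+ arrays, with rises of 0.90 to 3.35 and a median of 1.89. Cfap97d1 and Tekt3, below it on all SP-C+ arrays, and Cfap20dc and Rsph6a, above it on some, did not pass. The SP-C+ level is part of each difference, so these groups do not test whether level and rise are related. Probe brightness differs between probe sets, so these positions do not rank the genes by transcript number.

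Promoter sequence was available for 40 of the 47 genes in the RefSeq table for build GRCm38.p6, as windows from 250 bases before to 50 bases after the annotated start. Cfap65, Cfap299, Rsph4a, Cfap97, Cfap53, Cfap73 and Rsph1 had no entry. The windows are shown because the genes rose together and because RFX and forkhead factors, among them Foxj1, are known regulators of motile cilia genes. Letters of the RFX X-box, GTNNCC followed by any 3 bases and GNAAC on either strand, were found for 7 of the 40 genes (17.5%), where 2.49% of the 27025 genes with a window had them. They were Cfap206, Cfap44, Cfap61, Cfap45, Cfap298 and Tekt4, which rose, and Cfap20dc, which did not pass. The RFX core letters, GTTGCC on either strand, were present for 16 of the 40 (40%), beside 14.14% of all genes. Core letters can lie inside the X-box letters, so the counts overlap. Forkhead letters, TGTTTAC on either strand, were found for 3 of the 40 (7.5%: Cfap43, which rose, and Cfap20 and Tekt3, which did not pass), beside 4.05% of all genes. A match describes the letters only and is not evidence of binding.

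Stretches of 120 bases are printed 5′ to 3′ on the strand of the gene, with the matched letters in capitals. The first 4 carry X-box letters close to the annotated start. Tekt1 shows a pair of core matches on opposite strands, Cfap43 the forkhead letters of a gene that rose, and Cfap20 forkhead letters and a core match in a gene that did not pass.
Cfap206: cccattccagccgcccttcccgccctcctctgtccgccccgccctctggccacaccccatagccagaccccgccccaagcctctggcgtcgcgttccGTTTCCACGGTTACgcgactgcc
Cfap44: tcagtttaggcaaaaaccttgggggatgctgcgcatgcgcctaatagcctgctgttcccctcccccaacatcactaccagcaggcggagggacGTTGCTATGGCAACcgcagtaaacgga
Cfap61: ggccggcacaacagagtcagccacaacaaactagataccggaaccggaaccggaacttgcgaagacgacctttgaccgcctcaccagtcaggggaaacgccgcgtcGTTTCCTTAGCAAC
Cfap45: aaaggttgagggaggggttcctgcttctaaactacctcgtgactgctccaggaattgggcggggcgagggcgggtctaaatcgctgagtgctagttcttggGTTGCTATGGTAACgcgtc
Tekt1: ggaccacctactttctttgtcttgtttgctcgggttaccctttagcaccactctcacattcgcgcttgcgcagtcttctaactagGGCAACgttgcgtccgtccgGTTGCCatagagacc
Cfap43: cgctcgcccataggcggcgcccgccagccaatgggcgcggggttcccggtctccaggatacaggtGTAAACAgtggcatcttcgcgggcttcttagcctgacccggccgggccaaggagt
Cfap20: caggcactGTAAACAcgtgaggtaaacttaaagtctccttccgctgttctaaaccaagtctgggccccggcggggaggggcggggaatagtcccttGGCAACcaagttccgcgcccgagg
These stretches lie at chr4:34730207-34730326 (minus strand), chr16:44394679-44394798 (plus strand), chr2:145934670-145934789 (plus strand), chr1:172521010-172521129 (plus strand), chr11:72361883-72362002 (minus strand), chr19:47837362-47837481 (minus strand) and chr8:95434940-95435059 (minus strand), in the order printed. Those of Cfap206, Cfap44, Cfap45, Tekt1 and Cfap43 end at the last base before the start, that of Cfap61 runs 6 bases past it, and that of Cfap20 covers bases -190 to -71. Their genes differed by 3.85, 3.67, 2.56, 0.61, 1.42, 3.35 and -0.03, so genes with the same letters covered a wide range of rises. By call, X-box letters were held by 6 of 32 genes that rose and 1 of 8 that did not pass, and core letters by 13 of 32 and 3 of 8.

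**Figure D2:**
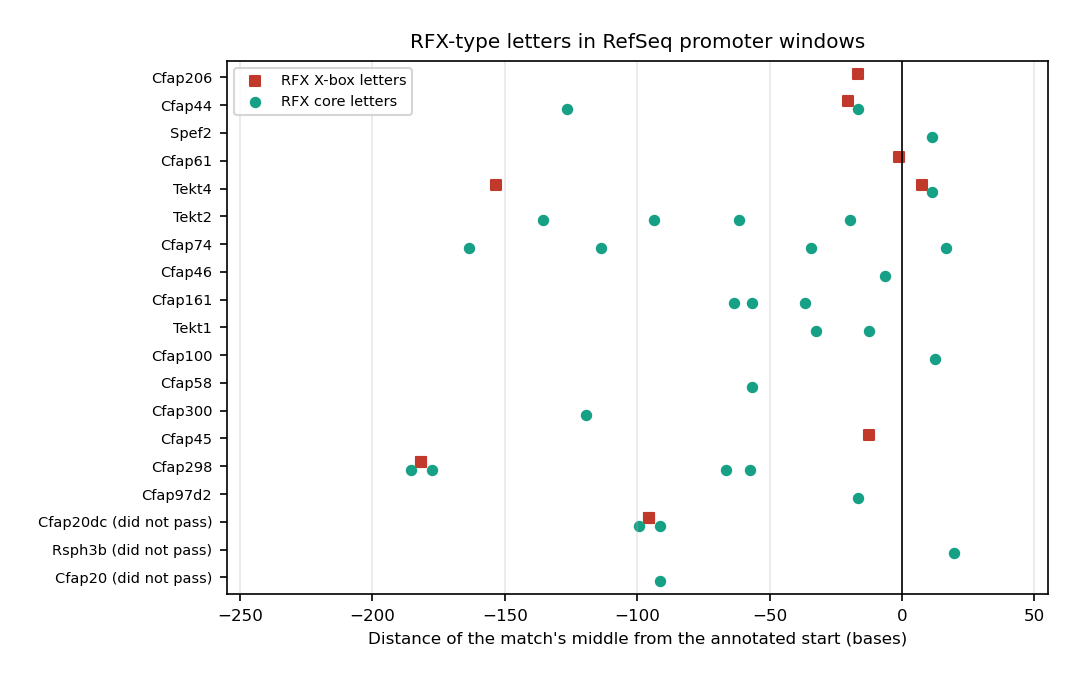
Distance of each RFX match from the annotated start (horizontal axis, bases, negative before the start) in the RefSeq windows of the genes that hold one, ordered by their rise in Axin2+ cells, with squares for X-box letters and circles for core letters. The X-box squares of Cfap206, Cfap44, Cfap61 and Cfap45 lie beside the start, and 3 of the genes shown did not pass the test.

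The 7 genes at the base of the radial spokes and of the inner dynein arms all rose, with a median of 2.56, and 4 of them rose at least 4-fold. Cfap206, which in Tetrahymena docks a radial spoke and an inner arm dynein to the doublet, measured 9.08, 9.12, 8.95, 9.51 and 9.42 on Axin2+ arrays 1 to 5, against 5.36, 5.46, 5.34, 5.53 and 5.16 on SP-C+ arrays 1 to 5. The groups were separated by more than 3 log2 units, and Axin2+ arrays 4 and 5 were the highest. Its difference was the largest of the 47, 3.85 ± 0.12 (SE, 14.4-fold, adjusted p = 2.55e-10). Its promoter holds the X-box letters printed above. Cfap44 and Cfap43 form the tether of an inner arm dynein, as known from Tetrahymena and Chlamydomonas. Cfap44 measured 8.93, 9.08, 8.99, 9.36 and 9.49 on the Axin2+ arrays, against 5.16, 5.62, 5.50, 5.69 and 5.55 on the SP-C+ arrays. Again no array of either group came near the other group, and Axin2+ arrays 4 and 5 stood highest. The difference was 3.67 ± 0.13 (SE, 12.7-fold, adjusted p = 9.57e-10), and its partner Cfap43 rose by 3.35. Cfap61, a subunit of the complex at the spoke base in Chlamydomonas, rose by 2.56, and Cfap57, needed for inner arm assembly, by 1.91. Cfap100 and Cfap73, partners in an inner arm regulatory complex of Chlamydomonas, rose by 1.37 and 0.78.

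The radial spoke genes were divided. Of 7, 4 rose (Rsph4a, Rsph1, Rsph9 and Rsph14) and 3 did not pass (Rsph3a, Rsph3b and Rsph6a), with a median difference of 0.93. Rsph4a, a spoke head protein whose human gene is mutated in primary ciliary dyskinesia, measured 8.61, 8.60, 8.67, 9.18 and 9.15 on the Axin2+ arrays, against 5.0, 4.80, 4.98, 5.13 and 5.12 on the SP-C+ arrays. The SP-C+ values lay in a narrow band, and Axin2+ arrays 4 and 5 were above the other Axin2+ arrays. Rsph4a rose by 3.84 ± 0.13 (SE, 14.3-fold, adjusted p = 6.68e-10). Rsph1, another spoke head protein, measured 6.85, 6.85, 6.73, 7.16 and 7.18 on the Axin2+ arrays, against 5.0, 5.37, 5.09, 5.22 and 5.11 on the SP-C+ arrays. The groups did not overlap, and the rise was 1.80 ± 0.11 (SE, adjusted p = 8.57e-08). Rsph9, the third head protein measured, rose by 1.32, and Rsph14 by 0.93.

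The spoke genes that did not pass include the sperm relative of Rsph4a. Rsph6a, the spoke head paralogue used in mouse sperm tails, measured 5.96, 6.00, 5.70, 5.94 and 5.88 on the Axin2+ arrays, against 6.11, 6.35, 6.06, 5.66 and 6.14 on the SP-C+ arrays. The groups overlapped, and the difference was -0.17 ± 0.12 (SE, adjusted p = 0.375). Rsph3a, a spoke stalk gene, measured 7.48, 7.59, 6.90, 7.10 and 7.59 on the Axin2+ arrays, against 7.53, 7.58, 7.56, 7.70 and 7.56 on the SP-C+ arrays. Axin2+ arrays 3 and 4 were lower than all others, the groups overlapped, and the difference was -0.25 ± 0.13 (SE, adjusted p = 0.222). A dimmer probe set of Rsph3a gave -0.15 ± 0.10 (SE, adjusted p = 0.458 over all probe sets). Its close copy Rsph3b lay at 8.28 to 8.38 in Axin2+ cells and 8.01 to 8.52 in SP-C+ cells, with a difference of 0.03 ± 0.09 (SE, adjusted p = 0.890). Transcripts of Rsph3a and Rsph3b are near copies of each other, and whether their probes share signal was not tested.

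Among the tektins, the filament proteins inside the doublets, 4 of 5 rose and 3 rose at least 4-fold, with a median of 2.09. Tekt5, described mainly from sperm flagella, measured 9.45, 9.28, 9.96, 9.64 and 9.98 on the Axin2+ arrays, against 7.13, 6.71, 7.0, 6.19 and 6.63 on the SP-C+ arrays. Both groups spread over more than 0.5 log2 units without meeting, and the highest Axin2+ arrays were 3 and 5. The rise was 2.93 ± 0.18 (SE, 7.63-fold, adjusted p = 1.38e-07). Tekt4 measured 8.01, 7.60, 7.27, 7.81 and 7.77 on the Axin2+ arrays, against 5.27, 5.55, 5.64, 5.61 and 5.33 on the SP-C+ arrays. Here Axin2+ array 1 was the highest, the groups stayed apart, and the rise was 2.21 ± 0.13 (SE, 4.64-fold, adjusted p = 8.57e-08). Tekt1, whose promoter stretch shows the paired core matches, rose by 1.42 ± 0.16 (SE, adjusted p = 4.25e-05).

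The probe sets of Tekt2 disagreed. The brighter one measured 7.49, 7.29, 7.14, 7.39 and 7.42 on the Axin2+ arrays, against 5.16, 5.26, 5.10, 5.51 and 5.25 on the SP-C+ arrays, and rose by 2.09 ± 0.10 (SE, adjusted p = 9.41e-09). Its other probe set ranged over 5.28 to 5.64 in Axin2+ cells and 5.48 to 5.64 in SP-C+ cells, with a difference of -0.09 ± 0.09 (SE, adjusted p = 0.639 over all probe sets). Averaged over both, Tekt2 rose by 1.0 (adjusted p = 3.71e-07 by limma). Tekt3, known from sperm motility, measured 4.47, 4.37, 4.47, 4.78 and 4.75 on the Axin2+ arrays, against 4.40, 4.60, 4.51, 4.44 and 4.26 on the SP-C+ arrays. Axin2+ arrays 4 and 5 were its highest, but the groups overlapped and the difference was 0.13 ± 0.10 (SE, adjusted p = 0.450).

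The central apparatus genes all rose, 8 of 8, with a median of 1.75. Cfap65, needed for sperm tail assembly in mouse and human, measured 9.56, 9.75, 9.71, 10.08 and 10.21 on the Axin2+ arrays, against 6.45, 6.27, 6.72, 6.66 and 6.45 on the SP-C+ arrays. Axin2+ arrays 4 and 5 were the highest and the groups lay far apart, at 3.35 ± 0.13 (SE, 10.2-fold, adjusted p = 2.48e-09). Spef2, a projection protein of the central pair, measured 7.60, 7.90, 7.81, 8.04 and 8.42 on the Axin2+ arrays, against 5.18, 4.92, 4.84, 5.01 and 5.08 on the SP-C+ arrays. No values overlapped, Axin2+ array 5 was the highest, and the rise was 2.95 ± 0.13 (SE, 7.71-fold, adjusted p = 8.29e-09). Further projection proteins rose less, with Cfap74 at 1.90, Cfap69 at 1.77, Cfap46 at 1.72, Cfap221 at 1.38 and Cfap47 at 0.79.

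Spef1 was the exception in size. This microtubule-bundling protein of the central pair, which non-ciliated epithelial cells also use, measured 8.83, 8.74, 8.75, 8.76 and 8.79 on the Axin2+ arrays, against 8.48, 8.41, 8.50, 8.58 and 8.68 on the SP-C+ arrays. The groups did not overlap but came within 0.1 of each other, and the rise was 0.24 ± 0.07 (SE, 1.18-fold, adjusted p = 0.0333). The call was lost in 8 of 10 fits that left out 1 array, with an adjusted p of up to 0.0766 without Axin2+ replicate 1. It was also lost at a stricter threshold of 0.01, over all probe sets (adjusted p = 0.0622), with a replicate block (adjusted p = 0.0924), with arrays centred on their medians (0.15, adjusted p = 0.147 by limma) and without SP-C+ arrays 1 to 3 (0.14, adjusted p = 0.311 by limma).

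Genes for other proteins inside or along the doublet rose in 6 of 7 cases, with a median of 1.46. Cfap52 measured 8.46, 8.19, 8.63, 8.76 and 8.69 on the Axin2+ arrays, against 6.81, 6.67, 6.66, 6.16 and 6.28 on the SP-C+ arrays. SP-C+ arrays 4 and 5 were the lowest, where Axin2+ arrays 4 and 5 were the highest, and the rise was 2.03 ± 0.14 (SE, 4.08-fold, adjusted p = 4.37e-07). Its partner on the doublet wall, Cfap45, rose by 0.61 ± 0.09 (SE, adjusted p = 4.17e-04), and its promoter holds the X-box letters printed above. Cfap161 measured 6.71, 6.66, 6.49, 6.83 and 6.79 on the Axin2+ arrays, against 5.44, 4.85, 4.97, 5.09 and 5.43 on the SP-C+ arrays. The Axin2+ arrays lay close together, more than 1 log2 unit above the highest SP-C+ array, and the rise was 1.54 ± 0.12 (SE, 2.91-fold, adjusted p = 1.43e-06).

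Cfap126, also known as Flattop, places basal bodies in mouse multiciliated cells. It measured 5.85, 5.79, 5.88, 6.89 and 6.82 on the Axin2+ arrays, against 4.55, 4.72, 4.94, 5.06 and 4.63 on the SP-C+ arrays. Axin2+ arrays 4 and 5 stood about 1 log2 unit above the other Axin2+ arrays, which were themselves above all SP-C+ arrays, and the rise was 1.46 ± 0.22 (SE, adjusted p = 4.89e-04). Cfap53, whose loss in human and mouse disturbs left-right patterning, rose by 1.46, and Cfap77 by 0.93. Cfap20, a protein of the inner junction between the doublet's tubules, lay at 10.82 to 10.98 in Axin2+ cells and 10.51 to 11.15 in SP-C+ cells. Its Axin2+ values fell inside the SP-C+ range, with a difference of -0.03 ± 0.11 (SE, adjusted p = 0.900).

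**Figure D3:**
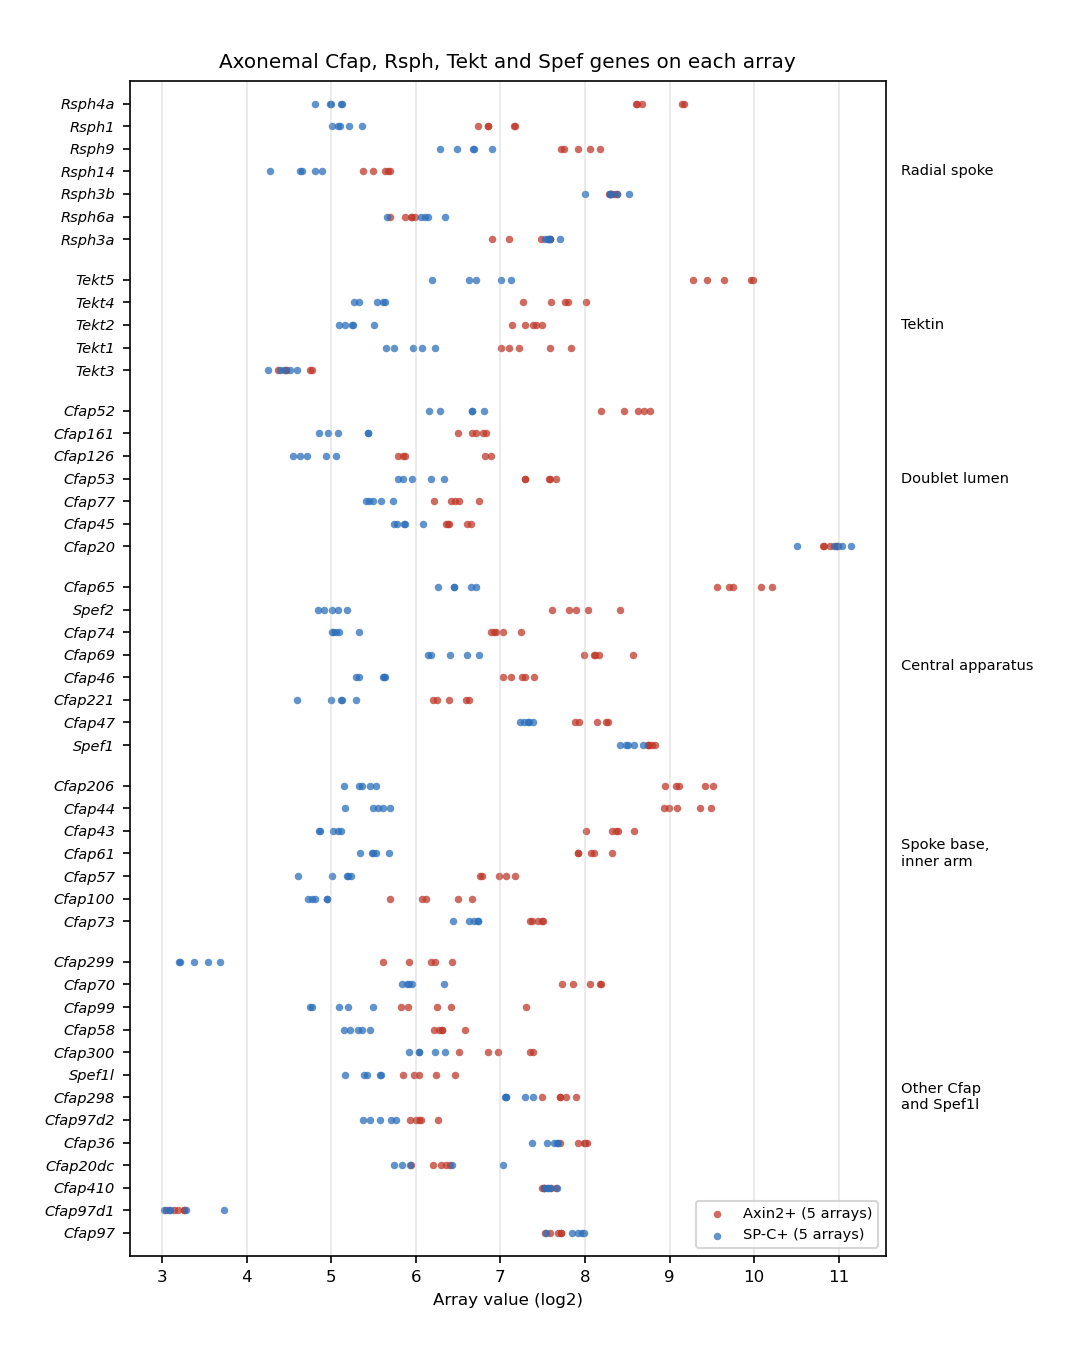
Value of each of the 47 genes on every array (horizontal axis, log2 intensity), grouped by role, with 1 point per array in red for Axin2+ and blue for SP-C+. Rsph4a, Cfap206 and Cfap44 show wide gaps between groups, while Rsph3a, Rsph6a and Tekt3 overlap.

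The other 13 genes have mixed or less settled roles, and 9 of them rose, with a median of 0.54. Cfap299 measured 6.17, 5.61, 5.92, 6.42 and 6.23 on the Axin2+ arrays, against 3.21, 3.38, 3.68, 3.20 and 3.55 on the SP-C+ arrays. The groups did not overlap, and the measured rise was 2.67 ± 0.15 (SE, adjusted p = 5.26e-08). Its SP-C+ values lay near the dim end of the arrays, and no measure of background was used here, so no fold is given. Cfap70, which regulates outer dynein arms in mouse cilia, measured 7.86, 7.73, 8.05, 8.19 and 8.18 on the Axin2+ arrays, against 5.89, 5.92, 6.33, 5.96 and 5.84 on the SP-C+ arrays. SP-C+ array 3 was above its group yet more than 1 log2 unit below the lowest Axin2+ array, and the rise was 2.02 ± 0.12 (SE, 4.04-fold, adjusted p = 7.61e-08). Cfap298 and Cfap300, which help to assemble dynein arms in the cytoplasm before they enter the cilium, rose by 0.54 and 0.90. Cfap99 had the largest SE of the 47, with a rise of 1.28 ± 0.25 (SE, adjusted p = 0.00299) and a high Axin2+ array 4 at 7.31 beside 5.82 to 6.41 on the other Axin2+ arrays. Cfap58, Spef1l, Cfap97d2 and Cfap36 rose by 1.04, 0.68, 0.48 and 0.34. The call for Cfap36 (adjusted p = 0.0168) was lost at a stricter threshold of 0.01 and under 3 other fits, at an adjusted p of 0.0560 when arrays were centred on their medians, 0.0599 with a replicate block and 0.0951 without SP-C+ arrays 1 to 3.

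Of the 4 that did not pass, Cfap97, related to the fly gene hemingway, measured 7.72, 7.68, 7.52, 7.71 and 7.59 on the Axin2+ arrays, against 7.84, 7.91, 7.54, 7.96 and 7.99 on the SP-C+ arrays. SP-C+ array 3 lay inside the Axin2+ range and the other SP-C+ arrays above it, with a difference of -0.20 ± 0.09 (SE, adjusted p = 0.173). Without that array Cfap97 fell, by 0.28 (adjusted p = 0.0289 by limma), the only gene of the 47 to do so under any setting. Cfap410, a protein of the ciliary base, lay at 7.49 to 7.66 in Axin2+ cells and 7.52 to 7.66 in SP-C+ cells, with a difference of -0.02 ± 0.07 (SE, adjusted p = 0.881). Cfap97d1 lay at 3.05 to 3.26 in Axin2+ cells and 3.02 to 3.73 in SP-C+ cells, among the dimmest values of the set, with a difference of -0.06 ± 0.12 (SE, adjusted p = 0.787). Cfap20dc lay at 5.94 to 6.40 in Axin2+ cells and 5.74 to 7.04 in SP-C+ cells, so SP-C+ array 1 alone exceeded every Axin2+ array by over 0.5, and the difference was 0.05 ± 0.21 (SE, adjusted p = 0.918).

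The Axin2+ arrays were not alike in these genes. The mean over the 47 was 7.29, 7.22, 7.23, 7.51 and 7.49 on Axin2+ arrays 1 to 5, against 5.96, 5.97, 5.99, 5.92 and 5.94 on SP-C+ arrays 1 to 5. Axin2+ arrays 4 and 5 were the highest and the SP-C+ arrays were nearly level. Averaged over arrays, this was 7.35 ± 0.14 in Axin2+ cells and 5.95 ± 0.03 in SP-C+ cells (SD, n = 5 each). Of the 38 genes that rose, 17 had their highest value on Axin2+ array 4, 15 on array 5 and 6 on arrays 1 to 3. Of all 47, 34 had their highest Axin2+ value on array 4 or 5. How often this held over all genes was not measured. Foxj1, the forkhead factor that switches on motile cilia genes, measured 8.59, 8.48, 8.62, 8.99 and 9.10 on the Axin2+ arrays, against 6.40, 7.02, 7.10, 6.47 and 6.26 on the SP-C+ arrays. It too was highest on Axin2+ arrays 4 and 5, did not overlap between the groups, and rose by 2.10 ± 0.18 (SE, adjusted p = 2.59e-06).

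**Figure D4:**
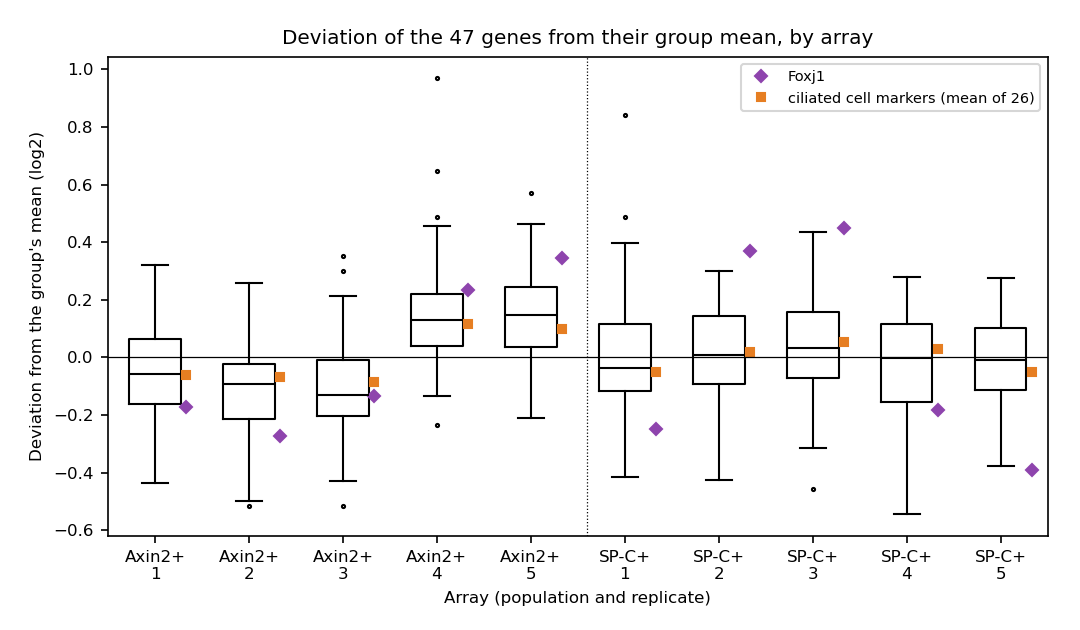
Deviation of the 47 genes from their mean over their own group (vertical axis, log2), for Axin2+ arrays 1 to 5 and then SP-C+ arrays 1 to 5, with boxes for the quartiles and the median, whiskers to the last gene within 1.5 box lengths, points for genes beyond, diamonds for Foxj1 and squares for the mean of 26 ciliated cell markers. Axin2+ arrays 4 and 5 lie above 0 for most genes, and so do Foxj1 and the ciliated markers there, while the 47 genes centre near 0 on the SP-C+ arrays.

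Other genes of the axoneme, from lists that hold none of the 47, were also higher in Axin2+ cells. The nexin-dynein regulatory complex, which links neighbouring doublets, rose in 10 of 10 genes with a median of 2.01, among them Fbxl13 at 2.46 and Iqcg at 2.44. Axonemal dynein chains, the motors themselves, rose in 14 of 17 with a median of 1.81, led by Dnah11 at 3.78 and Dnali1 at 3.29. Further central apparatus genes rose in 10 of 13 with a median of 1.97, led by Spag17 at 3.58 and Hydin at 3.35. Further spoke genes rose in 7 of 9 with a median of 0.81, with Nme5 at 3.11. Doublet lumen genes outside the set rose in 11 of 13 with a median of 1.07, with Saxo2 at 2.73. Dynein docking and ruler genes rose in 7 of 9 with a median of 1.45, with Efcab1 at 3.85. The SP-C+ values of Efcab1, 3.30 to 4.24, lay toward the dim end of the arrays. None fell in these 6 lists, where 8.61% of all genes rose and 8.95% fell.

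Genes that help to build or switch on cilia without forming the axoneme had lower medians. Dynein assembly factors, which act in the cytoplasm, rose in 8 of 13 with a median of 0.39, led by Lrrc6 at 2.90. Intraflagellar transport genes, shared by motile and primary cilia, rose in 15 of 29 and fell in 1, with a median of 0.37 and no rise of 4-fold. Regulators of multiciliated cells rose in 8 of 25 and fell in 2, with a median of 0.23. Myb at 3.56 and Foxj1 at 2.10 led the rises, and Ccno at -0.75 and Rfx7 at -0.31 were the falls. Of all genes, 8.61% rose and 8.95% fell, so the falls among the regulators lay near the share of all genes. Some genes stand in more than 1 list, and differences between lists were not tested.

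**Figure D5:**
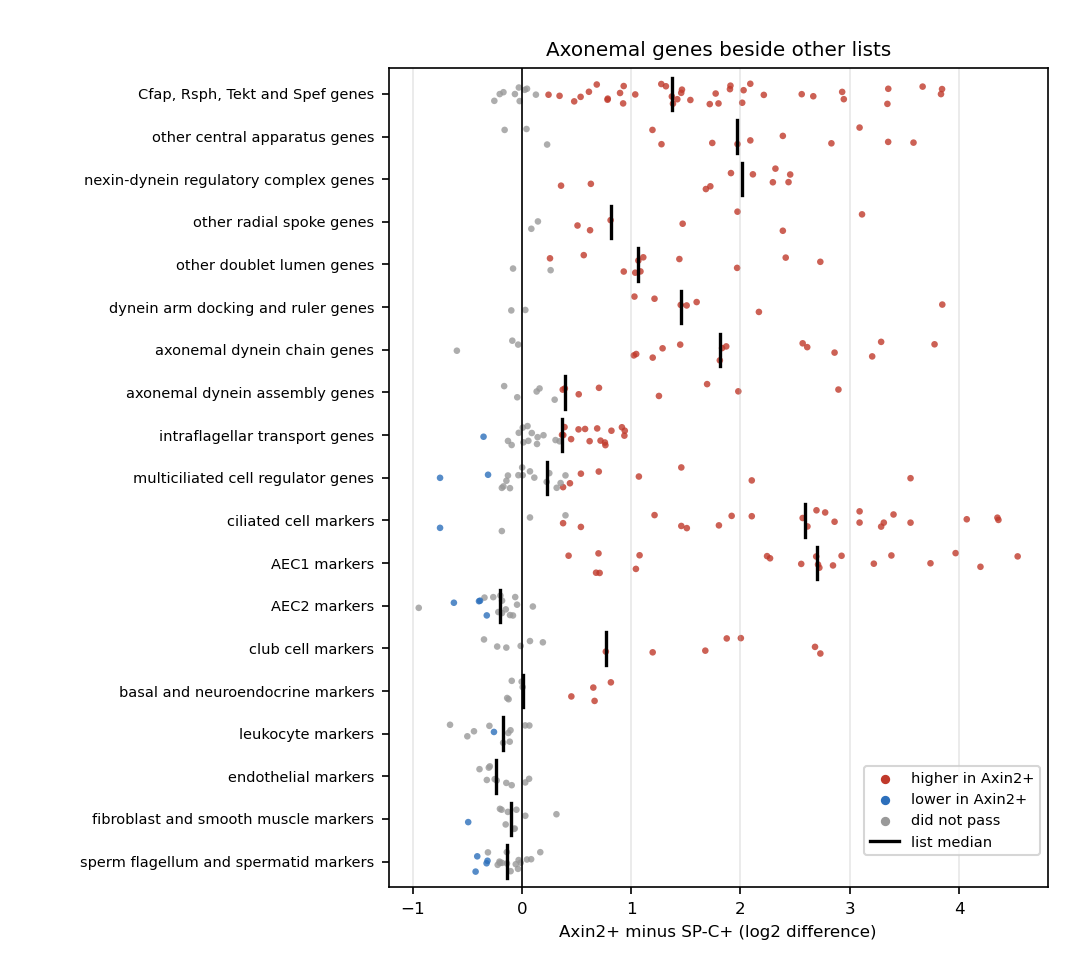
Differences between Axin2+ and SP-C+ cells for each gene of the lists (horizontal axis, log2, Axin2+ minus SP-C+), 1 row per list, with a bar at the list's median and colours for genes that rose, fell or did not pass. The 47 axonemal genes have a median of 1.37, the nexin-dynein complex 2.01, intraflagellar transport 0.37 and sperm markers -0.14.

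Markers of some cell types moved with the axonemal genes, and those of others did not. Of 26 ciliated cell markers outside the 47, 22 rose and 1 fell, with a median of 2.59. The fall was Ccno at -0.75, and the regulators Mcidas at -0.18, Gmnc at 0.40 and Rfx3 at 0.07 did not pass. The mean of the 26 markers lay at 8.09 to 8.29 on Axin2+ arrays and 5.95 to 6.05 on SP-C+ arrays. Of the 26, 21 lay above the median gene of all Axin2+ arrays, against 6 for all SP-C+ arrays. Their array means were 8.12, 8.11, 8.09, 8.29 and 8.27 on Axin2+ arrays 1 to 5, so arrays 4 and 5 were again the highest. EpCAM, used in the Axin2+ gate, is present on airway as well as alveolar epithelium, and the airway cell content of either population was not tested.

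Club cell markers, of the secretory airway cells, rose in 7 of 13 with a median of 0.77 (array means of 8.46 to 8.78 in Axin2+ cells and 7.55 to 7.87 in SP-C+ cells). Type 1 alveolar markers rose in 20 of 20 with a median of 2.70 (11.18 to 11.55 in Axin2+ cells and 8.71 to 9.33 in SP-C+ cells). AEC2 markers fell in 4 of 17 and rose in none, with a median of -0.20 (12.49 to 12.66 in Axin2+ cells and 12.77 to 12.87 in SP-C+ cells). Sperm and spermatid markers, for the other cell type that builds this axoneme, rose in 0 of 19 and fell in 4, with a median of -0.14 (5.42 to 5.51 in Axin2+ cells and 5.50 to 5.70 in SP-C+ cells). Basal and neuroendocrine markers rose in 4 of 9. Leukocyte markers fell in 1 of 11, endothelial markers in 0 of 10, and fibroblast and smooth muscle markers in 1 of 10. Over all genes 8.61% rose and 8.95% fell, so the falls among leukocyte and fibroblast markers lay near the share of all genes. The part of these cell types in the axonemal differences was not tested.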

How the data were processed

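Labelled RNA from 10 samples was measured on Affymetrix arrays. The deposited table holds the authors' log2 intensities for 41345 probe sets, made with oligo and RMA, per the submitters' processing notes, which also name limma. The log base was read from the range of the values, 1.69 to 14.16. RMA evens out the distributions of the arrays, so a shift shared by all genes would not be seen. By the platform annotation 23521 probe sets had 1 gene symbol, 1814 several and 16010 none. The brightest probe set per gene gave 22180 genes, with no filter on low values, and all 47 member symbols matched RefSeq.

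Groups came from the titles. Axin2+ was set against SP-C+ with lmFit and eBayes in limma 3.58.1 (R 4.3.3) over all genes, 2-sided, with Benjamini-Hochberg adjustment. On values with known changes, 54% of log2 changes of 0.5, 96% of those of 1 and 100% of those of 2 and 3 were recovered, and 3.85% of calls were false.

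The members and lists were chosen with earlier results of these data known. List names were matched for 281 of 313, 8 of them by an older symbol. Values on all arrays were given for the 2 largest rises in each role that held in every array and for the non-passing members with the lowest adjusted p. Tekt2, Cfap126 and Spef1 were added after their values were seen. Promoter letters were searched on both strands of RefSeq windows. Alternatives were another normalization, centring, probe set rule, filter, threshold, a replicate block and left-out arrays. The block was not used in the main result, because same-numbered arrays did not deviate together (correlations of -0.05, -0.07, 0.01, -0.23 and -0.18 for numbers 1 to 5).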

Additional observations from a re-analysis of the deposited data

Results flagged for a closer look

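In 3 of 96 sets of 5 arrays, 1 array stood apart from the other arrays of its group by Dixon's test at the 5% level, which marks about 1 set in 20 by chance. Cfap58 measured 6.58 on Axin2+ array 4, where the other Axin2+ arrays lay at 6.22 to 6.32. Cfap74 measured 5.33 on SP-C+ array 4, where the other SP-C+ arrays lay at 5.01 to 5.10. Cfap70 measured 6.33 on SP-C+ array 3, where the other SP-C+ arrays lay at 5.84 to 5.96. All 3 genes rose in Axin2+ cells with groups that did not overlap.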

How the results depend on the processing

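Over 23 settings, 36 of the 38 genes that rose kept their direction and their call wherever they were tested, the exceptions being Spef1 and Cfap36. The number that rose was 37 to 38 without 1 array, and 21 of 26 tested when genes under the 50th percentile were dropped, since fewer genes were tested. The number that fell was 0 to 1 without 1 array, 1 with median centring and 1 without SP-C+ replicates 1 to 3, and each time it was Cfap97. The number with a rise of at least 4-fold was 11 to 13 without 1 array, 11 with quantile normalization and 10 with median centring. With the replicate block, 36 rose and 0 fell. The block moved the calls over all genes to 2979, beside 3894 without it, and no array correlated best with the one of its own number. Genes that did not pass changed sign under some settings. Cfap20 was 0.010 with quantile normalization and 0.014 without SP-C+ replicates 4 and 5, Cfap20dc was -0.047 with centring, and Rsph3b was -0.067 with centring and -0.074 without SP-C+ replicates 4 and 5. Without 1 array, Cfap20 ran over -0.13 to 0.027, Cfap20dc over -0.068 to 0.26, Cfap410 over -0.046 to 0.0010, Cfap97d1 over -0.12 to 0.057 and Rsph3b over -0.048 to 0.082. The cause was not tested.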
